A study of Mus musculus with 4 samples.

Results

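Chromatin accessibility at the loci of 6 transcription regulators of naive pluripotency, Klf4, Klf2, Tfcp2l1, Tbx3, Prdm14 and Zfp42, was examined in 4 ATAC-seq libraries of mouse J1 embryonic stem cells. ATAC-seq marks accessible DNA by the insertion of sequencing adapters with the transposase Tn5. J1 is a line from the 129SV strain, and all 4 libraries came from feeder-free cells kept on gelatin in serum with leukemia inhibitory factor (LIF). Of these libraries, 2 were from DR+/+ cells, positive for both MERVL and Zscan4c, and 2 from DR-/- cells, negative for both. MERVL is an endogenous retrovirus and Zscan4c a gene of early embryos, and their joint activity marks the rare cells of such cultures that resemble the 2-cell embryo. The labels give no culture of origin for the replicates, and p-values over them measure the spread between these libraries only, which may be technical. The comparison asked whether sites around naive factors were called in both populations.

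The loci were set as windows on the mm9 genome, and every peak with its midpoint inside a window was taken. The windows were chr4:55440000-55600000 for Klf4 with its distal enhancers, chr8:74790000-74900000 for Klf2, chr1:120470000-120630000 for Tfcp2l1, chr5:120070000-120190000 for Tbx3, chr1:13050000-13170000 for Prdm14 and chr8:44330000-44450000 for Zfp42. Overlapping peaks of the 4 lists were merged. This gave 37 regions, built from 83 peaks, out of 50231 merged regions in the genome. Regions are numbered within each window by position. No annotation of mm9 was used, so regions were not assigned to exons, introns or start sites. In the GRCm38 gene table, the protein-coding neighbours of these genes are Rad23b and Actl7b for Klf4, Ap1m1 and Eps15l1 for Klf2, Clasp1 and Gli2 for Tfcp2l1, Med13l and Tbx5 for Tbx3, Slco5a1 and Ncoa2 for Prdm14, and Triml2 and Adam26b for Zfp42. Inside the windows the region closest to an edge lay 7.16 kb from it, at the lower edge for Zfp42. Outside, the closest region lay 25.6 kb away, below the Klf2 window, and was called in 4 lists.

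Naive pluripotency is the state of the preimplantation epiblast, held in culture by a network of mutually supporting transcription factors. LIF acts through STAT3, which activates Klf4 and Tfcp2l1, and also supports Tbx3, while Klf2 responds mainly to the block of MEK signalling. Prdm14 holds down FGF signalling and the de novo DNA methyltransferases. Zfp42, also called Rex1, is widely used as a reporter of the naive state.

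Promoter sequences of RefSeq (GRCm38.p6) were held for 4 of the 6 genes, Klf4, Klf2, Tfcp2l1 and Zfp42. The 250 bases before the start site were searched on both strands for motifs of the factors above, STAT3 (TTCCNGGAA), the KLF family (GGGNGTGG) and ESRRB (TCAAGGTCA), a nuclear receptor of the same network, and for the TATA box (TATAAA). The KLF motif was found in Tfcp2l1 (2 matches) and Zfp42 (1 match), and the TATA box in Tfcp2l1 (1 match). Over all 32851 promoters of the table the KLF motif occurred in 15.9% and the TATA box in 12.4%. The STAT3 motif, present in 0.913% of all promoters, and the ESRRB motif, present in 0.387%, had 0 matches in the 4 genes. The promoters with matches are shown 5′ to 3′ with the matches in capitals, Tfcp2l1 from chr1:118627695-118627944 (plus strand) and Zfp42 from chr8:43307010-43307259 (minus strand), both in GRCm38.p6 and not on the scale of the mm9 windows. The KLF matches read on the minus strand of each gene, as CCACGCCC and CCACACCC.
Tfcp2l1: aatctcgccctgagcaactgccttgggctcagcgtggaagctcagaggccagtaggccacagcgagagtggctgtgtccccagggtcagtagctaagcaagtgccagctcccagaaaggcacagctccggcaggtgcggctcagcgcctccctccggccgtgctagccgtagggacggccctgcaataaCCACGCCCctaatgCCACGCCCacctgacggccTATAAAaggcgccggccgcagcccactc
Zfp42: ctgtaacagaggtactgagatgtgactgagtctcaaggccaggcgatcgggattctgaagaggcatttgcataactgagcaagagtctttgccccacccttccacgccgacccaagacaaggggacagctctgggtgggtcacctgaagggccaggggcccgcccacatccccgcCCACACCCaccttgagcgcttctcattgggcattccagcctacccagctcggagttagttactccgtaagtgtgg
The matches in Tfcp2l1 lay 61 to 54 and 47 to 40 bases before the start, upstream of the TATA box at 28 to 23, and the match in Zfp42 lay 75 to 68 bases before it. The 2 KLF genes had the most CpG-rich promoters, with 32 CpG sites in Klf4 (G and C content 74.0%) and 29 in Klf2 (71.2%), against 16 in Tfcp2l1 (65.2%) and 9 in Zfp42 (58.4%). The median content over all promoters was 52.4%. Since the peaks are on mm9, whether a peak covers these bases was not tested.

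Each of the 6 loci held at least 1 region that was called in both populations. Of the 37 regions, 13 (35.1%) were called in all 4 lists, compared with 24.7% of all merged regions of the genome. Klf4 had 5 such regions, Klf2 had 3, Zfp42 had 2, and Tfcp2l1, Tbx3 and Prdm14 had 1 each. The higher share came from Klf4 (71.4%) and Klf2 (60.0%), with 33.3% at Zfp42, while Tfcp2l1 (14.3%), Tbx3 (16.7%) and Prdm14 (16.7%) were below the genome. Without the Klf4 window 8 of 30 regions (26.7%) were shared, near the genome's share. A further 17 regions (45.9%) were called in 1 list only, near the 44.1% of the genome, and 7 (18.9%) in exactly 2 lists, against 19.0%. Exactly 3 lists held 0 of the 37 regions, compared with 12.2% of all regions. The loci were also denser in regions than the genome, with 46.8 regions per Mb over the 6 windows and 43.8 to 50.0 per window, against 18.8 per Mb over the placed chromosomes. Windows around other genes were not compared, so this density may not be particular to these loci.

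**Figure D1:**
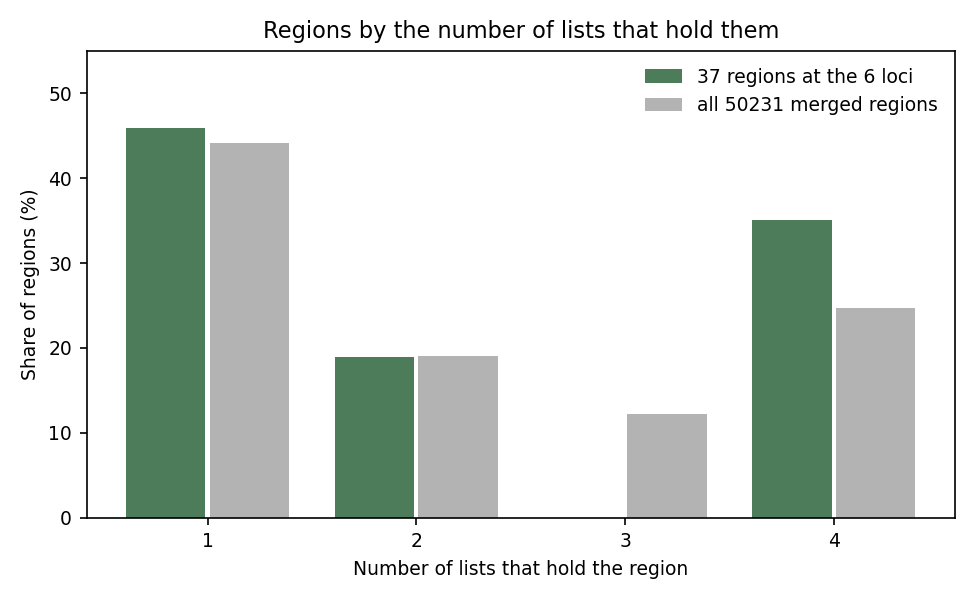
Share of regions, in percent, by the number of peak lists that hold them, for the 37 regions at the 6 loci and for all 50231 merged regions. The loci have a higher share in all 4 lists (35.1% against 24.7%), which is 26.7% without the Klf4 window, and no region in exactly 3.

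Regions confined to a population were few. Those called in both DR+/+ lists and in neither DR-/- list numbered 3 of 37 (8.11%), near the 9.08% of all merged regions, and lay at Zfp42 (2 regions) and Tfcp2l1 (1 region). The reverse pattern, both DR-/- lists and neither DR+/+ list, was found for 1 region (2.7%), at Tbx3, beside 1.38% in the genome. No test was made per region, since presence in 2 against 2 lists cannot give an exact permutation p below 0.33. A list without a peak shows only that no site passed the q-value limit of 0.05 there.

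The longest list gave the most peaks at these loci. DR+/+ replicate 1 had 26 peaks in the windows out of 40933 in its list, and DR+/+ replicate 2 had 19 out of 26866. DR-/- replicate 1 had 17 out of 21630, and DR-/- replicate 2 had 21 out of 24432. DR+/+ libraries averaged 22.5 ± 4.95 peaks (SD, n = 2) and DR-/- libraries 19.0 ± 2.83 (SD, n = 2), a difference of 3.5 peaks within the spread of the replicates (exact two-sided permutation test, p = 0.67). As a share of the list, the order was the opposite, with 0.0635% (95% Wilson interval 0.0434 to 0.0931%) and 0.0707% (0.0453 to 0.11%) in DR+/+ replicates 1 and 2, and 0.0786% (0.0491 to 0.126%) and 0.086% (0.0562 to 0.131%) in DR-/- replicates 1 and 2. Both DR+/+ shares were below both DR-/- shares, but all intervals, which cover counting error only, overlapped. The difference was -0.0152 percentage points (exact two-sided permutation test, p = 0.33, the smallest that 2 against 2 libraries can give). The peaks covered 6.73 and 4.67 kb in DR+/+ and 4.19 and 5.42 kb in DR-/- replicates 1 and 2, with mean widths of 259, 246, 247 and 258 bp (exact two-sided permutation test of the covered length, p = 0.67). The order of these totals rested on DR+/+ replicate 1, without which the mean number of peaks differed by 0.0 and the covered length by -0.139 kb.

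Peaks are described below by their fold enrichment at the summit over local background, as the authors' lists give it, and by the percentile of their q-value within their own list, where 100 is the strongest. Summit pileups were solved from the enrichment and the p-value, so rank, enrichment and pileup of a peak are not separate measures. These values belong to 1 list each. They are set side by side as a description, and an order between libraries in them is no measure of change. Values are given in the order DR+/+ replicates 1 and 2, then DR-/- replicates 1 and 2.

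**Figure D2:**
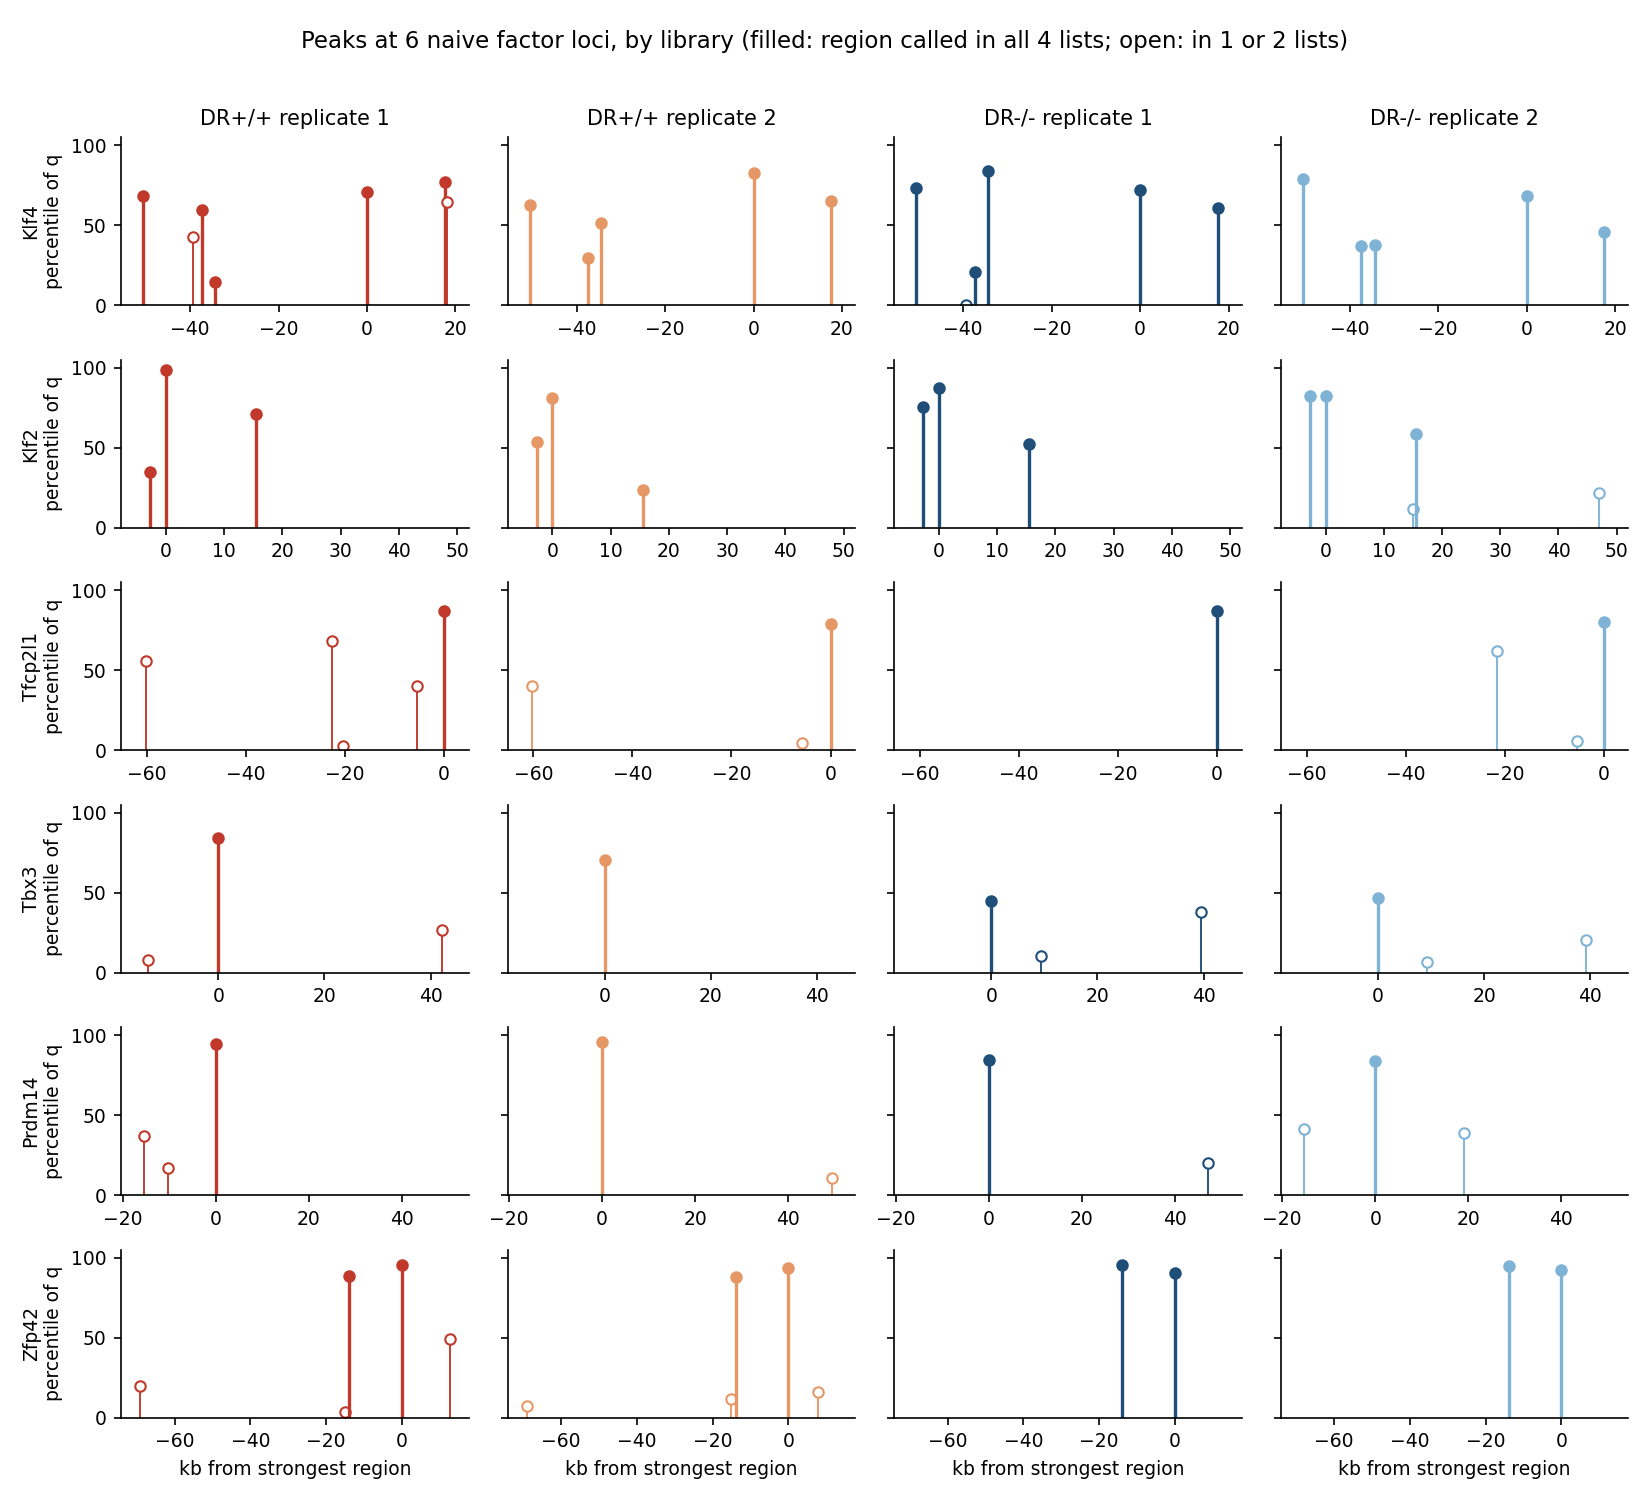
Every peak at the 6 loci, by library. The horizontal axis is the distance in kb from the centre of the strongest region of the locus and the vertical axis the percentile of the q-value within the list. Each point is drawn at the centre of its merged region, so a region has the same position in every library by construction. Filled points are regions called in all 4 lists. Open points, regions in 1 or 2 lists, are mostly low.

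The Klf4 locus, which encodes a zinc finger factor activated by STAT3, had the most regions shared by the 4 lists, 5 of its 7. Its strongest and widest region, region 5 at chr4:55527608-55528127, ranked at percentiles 70.8, 82.5, 72.2 and 68.1, with enrichments of 5.65-, 6.23-, 6.03- and 5.69-fold. All 4 lists were thus at a similar level. Its peaks were 480 and 456 bp wide in DR+/+ and 362 and 428 bp in DR-/-. Both DR+/+ peaks were the wider.

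A separate group of 4 regions spread over 16.4 kb lay on the lower-coordinate side of region 5, beyond a gap of 34.0 kb. Region 1 of this group, at chr4:55477145-55477485, ranked at 68.4, 62.5, 72.9 and 78.7, with 19, 17, 18 and 22 reads piled up at its summit. The neighbouring region 3 (chr4:55490262-55490600) was weaker, at percentiles 59.5, 29.6, 20.9 and 36.7. Region 4 (chr4:55493353-55493579) was uneven within each population, at 14.4 and 51.1 in DR+/+ and 83.9 and 37.8 in DR-/-. Between them, region 2 (chr4:55488349-55488631) was called only in the replicate 1 libraries, at percentiles 42.3 in DR+/+ and 0.222 in DR-/-, the latter near the limit of its list. The rule's window includes the distal enhancers of Klf4, but which of these regions corresponds to them was not analysed here.

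Region 6 of the Klf4 locus, at chr4:55545178-55545695, was wider in both DR+/+ libraries. Its peaks measured 424 and 407 bp in DR+/+ and 300 and 296 bp in DR-/-, and the replicates of each population differed by far less than the populations. Its percentiles were 77.1, 65.3, 60.4 and 45.8. In DR+/+ replicate 1 a further peak, region 7 at chr4:55545782-55545931, followed 86 bp after it, at percentile 64.7. This was the only region of the locus held by 1 list.

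At Tfcp2l1, whose product is a factor of the grainyhead-like family that sustains self-renewal downstream of STAT3, 1 of 7 regions was shared by all lists. This was region 7 at chr1:120544592-120545014, with percentiles of 86.7, 78.8, 87.1 and 80.2 and enrichments of 6.42-, 5.57-, 6.29- and 5.9-fold. Here the replicates of a population differed more than the populations. Its width went the other way from that of Klf4 region 6, at 296 and 265 bp in DR+/+ and 353 and 353 bp in DR-/-.

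The other Tfcp2l1 regions were called in 1 or 2 lists. Region 1, at chr1:120484343-120484840, was called in both DR+/+ lists alone and lay at -60.2 kb from region 7. Its peaks were 434 and 196 bp wide, overlapped by 132 bp and ranked at 55.7 and 39.8, with 17 and 14 reads at the summit. It was the strongest of the population-confined regions at the 6 loci, but its summits lay 244 bp apart. At 50% reciprocal overlap its peaks were not joined. Region 2 (chr1:120522023-120522299) was called in DR+/+ replicate 1 alone at percentile 68.1, and region 3 (chr1:120523165-120523291), 865 bp further, in DR-/- replicate 2 alone at 62.0. Both ranked above the median of their list without a counterpart in the replicate library. DR-/- replicate 1 held only region 7 in this window.

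The Tbx3 locus encodes a T-box factor supported by LIF signalling and held 1 shared region of 6. Region 2, at chr5:120120604-120121101, ranked at 83.9 and 70.4 in the DR+/+ lists and at 45.0 and 46.6 in the DR-/- lists. Its enrichments were 6.96-, 5.55-, 4.99- and 4.8-fold, on 21, 18, 14 and 16 reads at the summit. Both DR+/+ libraries stood above both DR-/- libraries in each of these values. When only the stronger 50% of each list was kept, the region was called in the DR+/+ lists alone, which its percentiles already fix. Its widths did not separate the populations, at 290, 380, 313 and 462 bp.

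Region 3 of the Tbx3 locus, at chr5:120130005-120130266, was the only region of the 6 loci confined to DR-/-. Its peaks ranked at 10.3 and 6.92, rested on 12 reads in each library and overlapped by 50 bp. It was thus among the weakest peaks of both lists. Regions 4 and 5 lay 152 bp apart in different DR-/- lists, at percentiles 20.2 and 37.9, and DR+/+ replicate 1 alone held region 1 and region 6, at 8.11 and 26.5. DR+/+ replicate 2 held only the shared region.

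Klf2, a zinc finger factor related to Klf4, had 3 shared regions among its 5. Region 2, at chr8:74842703-74843016, ranked at 98.2, 81.1, 87.1 and 82.0. In DR+/+ replicate 1 it was enriched 8.03-fold with 43 reads at the summit, the highest pileup of any peak at the 6 loci, compared with 25 reads in DR+/+ replicate 2 and 27 and 28 in DR-/-. The high value was therefore not shared by the other DR+/+ library.

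Region 1 of the Klf2 locus, at chr8:74840042-74840299 and 2.4 kb before region 2, ranked higher in the DR-/- lists. The percentiles were 34.5 and 53.6 in DR+/+ and 75.4 and 82.5 in DR-/-, with 19 and 19 reads against 23 and 27 at the summit. Its peaks were also narrower in DR+/+, at 185 and 174 bp against 224 and 258 bp. The populations did not overlap in rank, pileup or width, in the direction opposite to the ranks of Tbx3 region 2. Region 4 (chr8:74858169-74858451), 15.2 kb after region 2, ranked at 70.7, 23.7, 52.2 and 58.3, and regions 3 and 5 were held by DR-/- replicate 2 alone, at 11.6 and 21.9.

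Prdm14, a PR domain protein that represses FGF receptor signalling, had a single strong region. Region 3, at chr1:13074888-13075478, was the widest merged region of the 6 loci at 591 bp. It ranked at 94.4 and 95.9 in DR+/+ and at 84.7 and 84.1 in DR-/-, with enrichments of 7.36-, 7.91-, 6.33- and 6.02-fold and 33, 30, 22 and 25 reads at the summit. Both DR+/+ libraries were above both DR-/- libraries in rank, enrichment and pileup. The widths were 538, 337, 395 and 516 bp, and here the populations overlapped.

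The other 5 regions of the Prdm14 window were called in 1 or 2 lists. Region 1 (chr1:13059866-13059979) was held by DR+/+ replicate 1 and DR-/- replicate 2, at percentiles 37.1 and 41.1, and the rest by 1 library each, at 39.0 or lower. Region 4 (chr1:13094094-13094279), in DR-/- replicate 2, had that percentile of 39.0. None was called in both lists of a population.

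Zfp42 had the 2 strongest shared regions by mean percentile. Region 4, at chr8:44406060-44406618, ranked at 95.2, 93.5, 90.6 and 92.2, with enrichments of 8.01-, 7.67-, 6.96- and 7.53-fold and widths of 556, 522, 525 and 457 bp. Region 3, at chr8:44392276-44392685, lay 13.4 kb before it and ranked at 88.5 and 88.0 in DR+/+ and 95.5 and 94.5 in DR-/-. Its enrichments were 6.6-, 6.37-, 7.7- and 7.38-fold, higher in both DR-/- libraries, while its widths of 347, 349, 310 and 289 bp were higher in both DR+/+ libraries. Height and width of the same region thus ordered the populations in opposite ways.

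The Zfp42 window was the only one where both DR+/+ lists held more peaks than both DR-/- lists, at 5 and 5 against 2 and 2. Region 1 (chr8:44337164-44337357) and region 2 (chr8:44391155-44391369) were confined to DR+/+, with percentiles of 20.0 and 7.31 and of 3.94 and 11.7. They rested on 11 to 14 reads at the summit. The 2 peaks of region 1 shared only 29 bp, with widths of 108 and 115 bp, and those of region 2 shared 84 bp. Region 5 was held by DR+/+ replicate 2 alone at percentile 16.1, and region 6 (chr8:44418980-44419132) by DR+/+ replicate 1 alone at 49.2. With every list limited to as many of its strongest peaks as the shortest list holds, regions 1 and 2 were called in no list.

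**Figure D3:**
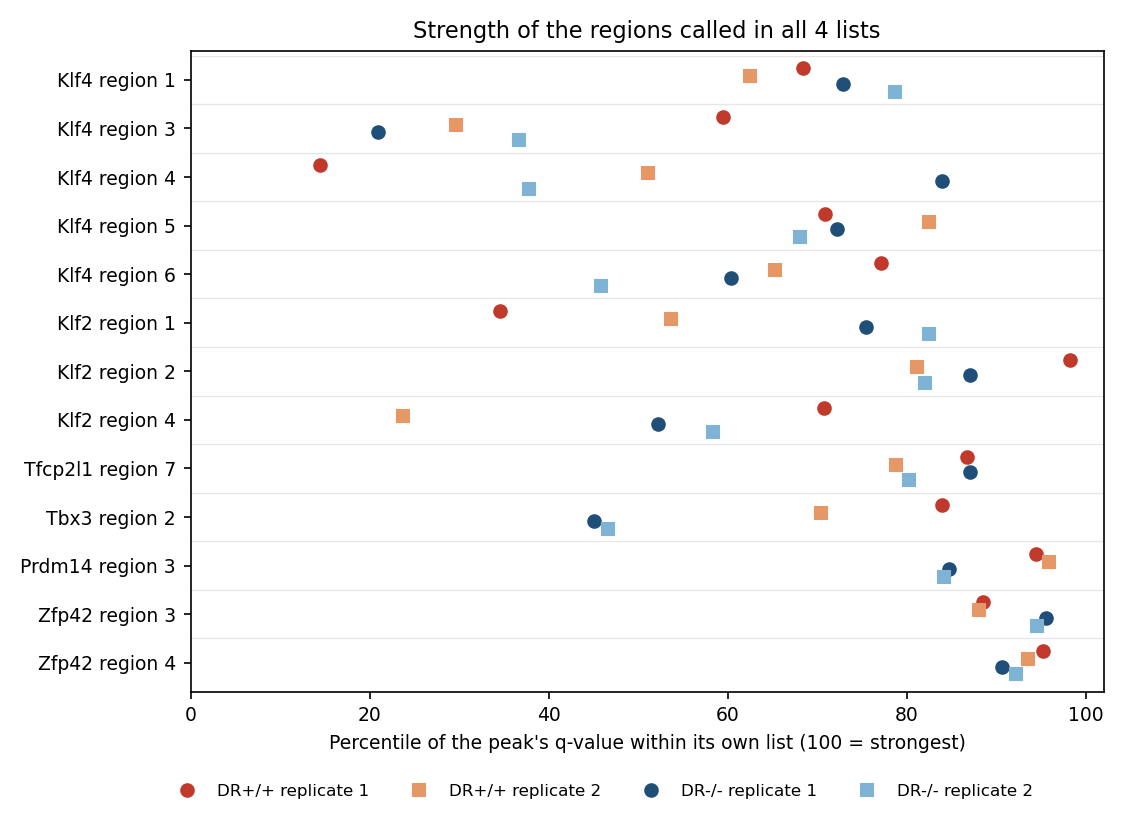
Percentile of the q-value within each list for the 13 regions called in all 4 lists, with circles for replicate 1 and squares for replicate 2. Both DR+/+ lists are above both DR-/- lists at 4 regions, among them Tbx3 region 2 and Prdm14 region 3, and below them at 3, Klf4 region 1, Klf2 region 1 and Zfp42 region 3.

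Across the loci, the shared regions ranked high in their lists, as shared regions of the genome did by median percentile. In 11, 11, 11 and 9 of the 13 shared regions the peak ranked at or above the median of its list, compared with 3 of 13, 0 of 6, 0 of 4 and 1 of 8 of the other peaks. The same counts over the genome are not given here. The median percentiles of the 13 regions were 77.1, 70.4, 75.4 and 78.7, beside 82.5, 73.0, 68.1 and 71.2 over all 12412 regions of the genome called in all 4 lists. The members were thus below that level in both DR+/+ lists and above it in both DR-/- lists. In 4 of the 13 (Klf4 region 6, Tbx3 region 2, Prdm14 region 3 and Zfp42 region 4) both DR+/+ percentiles were above both DR-/- percentiles, an order found in 32.5% of all shared regions. In 3 (Klf4 region 1, Klf2 region 1 and Zfp42 region 3) both were below, against 8.83%. The lists differ in length, that of DR+/+ replicate 1 being the longest, and the part of this in these orders was not tested. Regions in fewer lists were narrow, with a median merged width of 153 bp against 410 bp for the 13, and the same medians over the genome were 164 and 367 bp. A merged width spans all peaks of a region, so part of this gap is built in by the number of lists. The median peak widths of the 13 within each list were 296, 283, 300 and 296 bp.

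Widths of the 13 shared regions, divided by the median peak width of the list (188, 189, 173 and 176 bp), had medians of 1.57, 1.5, 1.73 and 1.68. DR+/+ libraries averaged 1.54 ± 0.0545 (SD, n = 2) and DR-/- libraries 1.71 ± 0.037 (SD, n = 2), a difference of -0.172 (exact two-sided permutation test, p = 0.33, the smallest possible). The same medians over all 12412 shared regions were 1.64, 1.39, 1.31 and 1.4. The difference was not stable to the choice of loci, being 0.0134 without the Tfcp2l1 window, -0.0185 without that of Klf2, -0.0739 without that of Tbx3, -0.094 without that of Zfp42 and -0.036 with every window widened by 50 kb on each side. By region, 2 of the 13 (Klf4 region 6 and Zfp42 region 3) were relatively wider in both DR+/+ lists, where 27.9% of all shared regions were, and 2 (Klf2 region 1 and Tfcp2l1 region 7) in both DR-/- lists, where 10.8% were. The remaining 9 overlapped. In bp, 3 were wider in both DR+/+ lists (38.6% of all shared regions) and 2 in both DR-/- lists (5.66%), Klf4 region 5 being the addition.

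**Figure D4:**
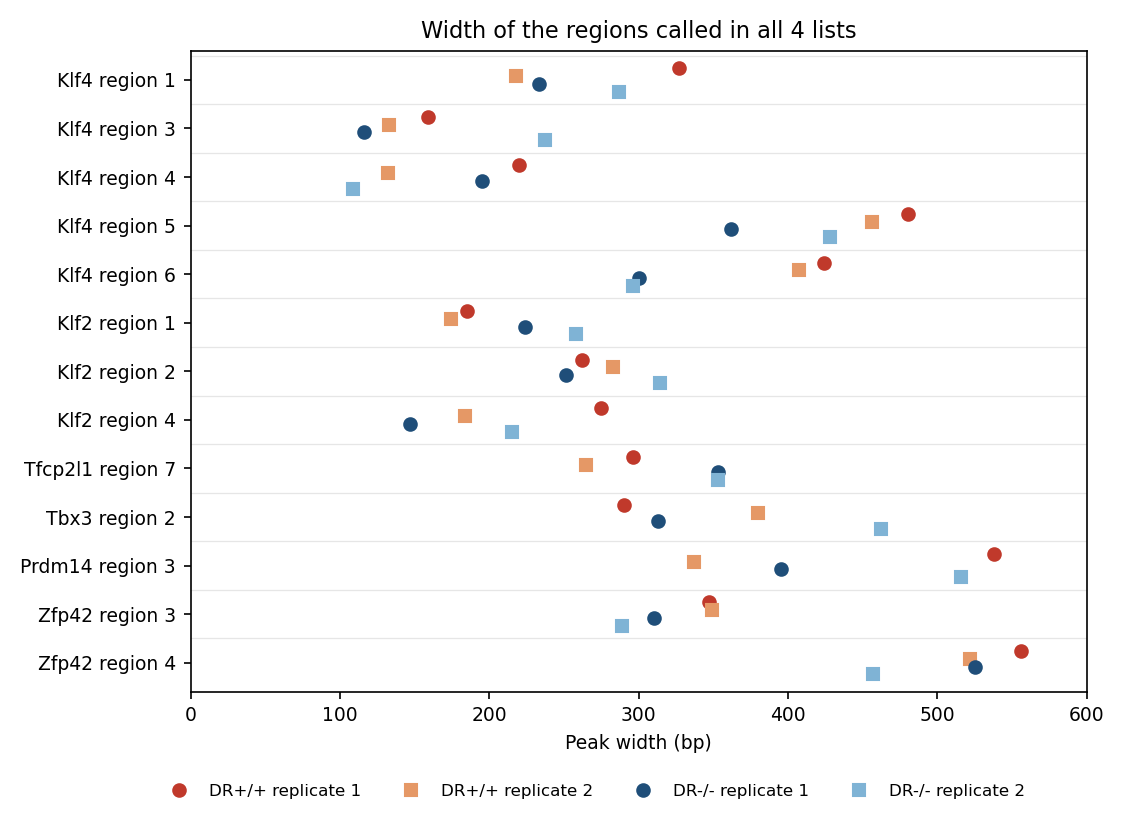
Peak width in bp of the 13 regions called in all 4 lists, by library (circles replicate 1, squares replicate 2). Klf4 regions 5 and 6 and Zfp42 region 3 are wider in both DR+/+ libraries, Klf2 region 1 and Tfcp2l1 region 7 in both DR-/- libraries.

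Summits of the 13 shared regions were spread about as far over the 4 lists as those of all shared regions. The overlap of the peaks itself limits this distance. The largest distance between any 2 of the 4 summits had a median of 87.0 bp over the 13 regions and ranged from 18 bp at Klf4 region 4 to 319 bp at Tbx3 region 2, beside a median of 80.0 bp over all shared regions. Median summit distances were 57.0 bp within populations and 43.5 bp between them, beside 41.5 and 43.0 bp over all shared regions. Most ways of pairing 4 summits give a larger mean distance within pairs than between them. Only the pairing of the lower 2 with each other and the upper 2 with each other gives the smaller distance within pairs. The medians alone therefore do not show whether summits of the same population lay closer together. Over all shared regions, 32.8% had the smaller distance within populations, near the share of that 1 pairing among all pairings. Only Zfp42 region 4 had a smaller distance within populations (86.0 bp) than between them (168.0 bp), 1 of 13 (7.69%) beside 32.8% of all shared regions. Its summits lay at 44406212 and 44406265 in DR+/+ and at 44406466 and 44406347 in DR-/-, so both DR+/+ summits were on the lower-coordinate side.

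These peaks were shallow. The median pileup at the summits of the 13 shared regions was 23.0, 21.0, 22.0 and 22.0 reads, and 15.0, 12.5, 13.0 and 14.5 reads for the other peaks, over lists with medians of 16.0, 16.0, 15.0 and 16.0. The lowest background of a list was 1.66, 1.62, 1.31 and 1.47 reads, higher in DR+/+, and the part of this in the differences of presence and width was not tested.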

How the data were processed

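ATAC-seq peak lists of 4 libraries were analysed, 2 per population, grouped by their titles. The build was mm9 and the tools were SAMtools 0.1.19, Bowtie2 2.3.0 and FastQC 0.10.1, per the submitters' processing notes. Which peak caller was run, and how duplicate or multiply mapped reads were treated, is not given in the sources used here. The authors deposited 1 list per library in narrowPeak layout, so replicates were not pooled. Each deposited peak has a summit position, a score, a −log10 q-value (lowest 1.31 to 1.32), a −log10 p-value and the ratio of its summit to background (fold enrichment). Summit positions were compared between lists. The others rank and describe peaks within a list, and where set side by side between lists they are descriptions without a test.

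Peaks overlapping by at least 1 bp were merged, with pandas 2.3.3, SciPy 1.17.1 and NumPy 2.4.6 under Python 3.11.15. Summit pileups, of reads or fragments, were whole numbers solved from fold enrichment, taken as (pileup + 1)/(background + 1), and a Poisson p-value, which matched within 0.001 for 100.0% of peaks. The lists do not state read depth. The merging and pileup code was tested on simulated data. Libraries were compared with exact permutation tests. Members, lists and tests were chosen with earlier results of these data known. Regions named are the 3 with the highest mean percentile per window, the widest, and those confined to a population. Others are given to account for the members, chosen after their values were seen. Alternatives covered overlap, thresholds, list length, window size, each library, each window and a replicate block. The planned description of other naive loci needs an mm9 annotation and was not made.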

Additional observations from a re-analysis of the deposited data

How the results depend on the processing

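The 13 shared regions were also 13 without each library in turn, where none could be added because exactly 3 lists held 0 regions. They numbered 7 with the stronger 50% of each list and 8 without the Klf4 window. DR+/+-confined regions, 3 in the report, numbered 0 at 50% reciprocal overlap, 1 at a −log10 q of at least 3, 1 with the stronger 50%, 1 with lists of equal length, 1 without the Zfp42 window and 3 to 10 without each library in turn. DR-/--confined regions, 1 in the report, numbered 0 at 50% reciprocal overlap, 2 when merging over gaps of up to 500 bp, 0 at a −log10 q of at least 3, 0 with the stronger 50%, 0 with lists of equal length, 0 without the Tbx3 window and 1 to 6 without each library. Leaving out a library also changes what counts as confined. With lists of equal length the difference in peaks turned to -3.5 (exact permutation p = 0.33) and that in covered length to -0.151 kb (exact permutation p = 0.67). Without each library in turn the covered length differed by -0.139 to 1.92 kb. The relative width turned to 0.0134 without the Tfcp2l1 window, was -0.0185, -0.0739 and -0.094 without the Klf2, Tbx3 and Zfp42 windows and -0.036 with wider windows, and was -0.244 when scaled to all shared regions; over all 19 alternatives it ranged from -0.273 to 0.0134. The share of the list was lower in DR+/+ in all 18 alternatives (-0.0219 to -0.00723 percentage points). Of these, 50% reciprocal overlap, merging over gaps of up to 500 bp and the replicate block cannot change it (-0.0152). Causes of these moves were not tested beyond the alternatives' own construction. With the replicate block the differences were 3.5 peaks, -0.0152 percentage points, 0.892 kb and -0.172, with exact permutation p-values of 1.0, 0.5, 1.0 and 0.5, of which 0.5 is the smallest possible. Deviations of same-numbered libraries correlated at -0.018 over the 12412 shared regions. Whether same-numbered libraries were prepared together is not given by the labels, and this correlation cannot decide it.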
